A study of Mus musculus with 18 samples.

Results

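The hypoxia response and glycolysis genes are a set of 41 genes taken by symbol from a table of 24493 gene symbols, and all 41 were present. By role they were 3 subunits of the hypoxia-inducible factors (HIF), 15 genes of oxygen sensing or other HIF targets, 4 glucose and lactate transporters, and 19 glycolytic enzymes and regulators of glycolysis. Of the 41, 40 had a mean of at least 1 TPM (a transcript level per length, scaled to a fixed total in each library) over all libraries and were tested. The exception was Slc2a3, a glucose transporter, which stood between 0.128 and 2.59 TPM.

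The libraries came from the mouse pancreatic tumor cell lines 6694c2 and 6419c5 (strain C57BL/6), grown as untreated subcutaneous tumors and then sorted, with RNA made into libraries by a company. In each line there were 3 groups of 3 libraries, namely Kdm3a knockout clone B, Kdm3a knockout clone A and wild type (WT), which gives 6 groups and 18 libraries. Kdm3a encodes a histone demethylase, and the design compared knockout with WT cells. The 3 libraries of a knockout group all represent 1 clone, and the clone letters pair nothing between the lines. The labels give neither the sort marker, nor the knockout method, nor the ages of the host mice, nor whether the 3 libraries of a group were separate tumors, so p-values measure only the spread between these libraries.

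When oxygen is sufficient, prolyl hydroxylases of the Egln family mark the alpha subunits of HIF for destruction. When oxygen is short, the alpha subunit (encoded by Hif1a or Epas1) escapes this, pairs with the beta subunit encoded by Arnt and binds a short DNA motif near its target genes. These include glucose and lactate transporters, most glycolytic enzymes, and the Egln genes themselves. Kdm3a is a known HIF target as well, and pancreatic tumors are known for poor blood supply and high glucose use.

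Several features of the libraries bear on every value. Kdm3a transcript in 6694c2 stood at 28.8, 30.2 and 25.2 TPM in clone B and 26.2, 26.4 and 29.8 TPM in clone A. WT of that line had 39.9, 38.9 and 67.6 TPM (-0.75 over both clones, limma adjusted p = 0.00910). In 6419c5 it stood at 12.3, 18.8 and 13.5 TPM in clone B and 21.6, 24.6 and 21.6 TPM in clone A. WT there had 38.2, 24.1 and 32.9 TPM (-0.75 over both clones, limma adjusted p = 0.0185). Clone A of 6419c5 overlapped WT, and clone B did not. With single libraries left out, the difference from WT was -1.22 to -0.90 in clone B of 6419c5 and was called each time. In clone A it was -0.63 to -0.31 and was never called. The call over both clones of 6419c5 was lost without WT replicate 1 (-0.60, limma adjusted p = 0.113) or WT replicate 3 (-0.71, limma adjusted p = 0.0740). That in 6694c2 was lost with a fibroblast marker index as a covariate (-0.68, limma adjusted p = 0.118). All 6 epithelial tumor cell markers were above 0 in every library, with summed levels of 5379 to 12183 TPM. The 10 macrophage markers were also above 0 in every library, with sums of 417 to 3398 TPM in clone B, 3256 to 6187 TPM in clone A and 137 to 1720.1 TPM in WT of 6694c2, and of 206 to 427 TPM in clone B, 2305 to 8208 TPM in clone A and 1222 to 7552 TPM in WT of 6419c5. The 8 fibroblast markers summed to 104 to 826 TPM, 652 to 974 TPM and 149 to 251 TPM in clone B, clone A and WT of 6694c2, and to 250 to 279.6 TPM, 920.2 to 956 TPM and 276 to 563 TPM in the same groups of 6419c5. In 6694c2 the 5 neutrophil markers summed to 27.7 to 36.0 TPM in clone B, 82.4 to 217 TPM in clone A and 9.80 to 17.6 TPM in WT, and the 5 erythroid markers to 35.2 to 169 TPM, 121 to 165 TPM and 292 to 745 TPM in clone B, clone A and WT. Libraries treated as standing apart numbered 3: 6694c2 clone B replicate 3 (macrophage sum 3398 TPM, against 417 and 427 TPM in the other clone B libraries), 6694c2 clone A replicate 1 (endothelial sum 171 TPM, against 24.8 and 22.6 TPM) and 6419c5 WT replicate 3 (macrophage sum 7552 TPM, against 1222 and 1864 TPM). The WT libraries of 6694c2 also spread widely, with macrophage sums of 553, 1720.1 and 137 TPM, and none was among the 3. The part of other cells in the results below was not tested beyond the fits with a marker index or without the 3 libraries. In 6694c2 the fibroblast index (mean log2(TPM + 1) of its markers) was 5.24 to 5.64 in clone A and 3.01 to 3.48 in WT. Clone B had 2.87, 2.72 and 5.10. The index thus largely followed the group, and a fit that holds it cannot separate the 2 well in that line. A single entry, Mir6236, took 6.44% to 9.57% of all TPM in clone B, 6.04% to 7.27% in clone A and 8.57% to 17.36% in WT of 6694c2. In 6419c5 it took 8.2% to 17.19% in clone B, 7.18% to 9.66% in clone A and 8.32% to 16.55% in WT. TPM are scaled to a fixed total, so a larger share of this entry lowers the TPM of all other genes. Its part in the results below was not tested separately. TPM hold no read numbers, so depth is unknown.

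The DNA motif bound by HIF has the core ACGTG or GCGTG. The promoters searched came from RefSeq (build GRCm38.p6, 250 bases before to 50 bases after each gene start) and covered 36 of the 41 members. Ndrg1, Bnip3l, Epas1, Lox and Slc2a3 were not among them, which does not show that RefSeq lacks them. With both strands searched and overlapping matches counted, 33 of the 36 members (91.7%) held a core in at least 1 of their promoters. The share was 66.1% of 10211 tested genes and 46.7% of the 27025 genes whose promoters were searched. Windows of the same length held it in 45 of 54 member promoters (83.3%) and in 43.8% of the 32851 promoters searched. The members were listed as HIF and glycolysis genes, many of them known HIF targets, so these shares do not test the motif. Base composition was not matched. Sequences are shown for the members on which the knockout results turn: Slc16a3 and Hk2, which fell in both lines, and Ak4, Car9, Pfkp and Tpi1, whose knockout effect differed between the lines (Ndrg1 did as well). Ak4 has 4 windows in the table, of which the first is shown, and another holds 3 cores. Each runs 5′ to 3′ in the direction of transcription, with the core in capitals (CACGT and CACGC are the core on the opposite strand). Tpi1 had no core in its window, which says only that these letters were not there.
Slc16a3 (chr11:120948817-120949116, plus strand): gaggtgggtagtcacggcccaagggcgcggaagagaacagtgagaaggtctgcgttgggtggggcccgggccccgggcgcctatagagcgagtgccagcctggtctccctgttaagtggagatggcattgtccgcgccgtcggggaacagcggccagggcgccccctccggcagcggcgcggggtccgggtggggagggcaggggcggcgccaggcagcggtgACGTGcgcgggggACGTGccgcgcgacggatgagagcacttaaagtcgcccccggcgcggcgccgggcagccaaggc
Hk2 (chr6:82774405-82774704, minus strand): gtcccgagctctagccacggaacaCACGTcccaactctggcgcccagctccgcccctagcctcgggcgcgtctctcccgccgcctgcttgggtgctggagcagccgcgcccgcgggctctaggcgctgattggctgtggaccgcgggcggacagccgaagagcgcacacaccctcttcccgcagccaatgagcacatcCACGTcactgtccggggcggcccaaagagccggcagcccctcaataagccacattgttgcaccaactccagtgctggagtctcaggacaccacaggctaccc
Ak4 (chr4:101419039-101419338, plus strand): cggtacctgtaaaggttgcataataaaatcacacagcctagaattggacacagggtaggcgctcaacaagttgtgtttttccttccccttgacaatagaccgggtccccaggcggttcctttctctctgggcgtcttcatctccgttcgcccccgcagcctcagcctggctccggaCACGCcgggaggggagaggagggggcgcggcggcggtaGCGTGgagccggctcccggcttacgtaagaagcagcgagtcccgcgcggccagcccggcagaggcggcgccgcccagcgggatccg
Car9 (chr4:43506776-43507075, plus strand): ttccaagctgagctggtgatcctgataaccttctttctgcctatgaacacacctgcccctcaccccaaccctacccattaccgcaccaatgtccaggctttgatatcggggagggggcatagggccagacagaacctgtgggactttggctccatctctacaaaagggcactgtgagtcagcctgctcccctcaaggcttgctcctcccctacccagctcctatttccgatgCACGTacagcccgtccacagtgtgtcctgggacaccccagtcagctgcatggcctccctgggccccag
Pfkp (chr13:6648722-6649021, minus strand): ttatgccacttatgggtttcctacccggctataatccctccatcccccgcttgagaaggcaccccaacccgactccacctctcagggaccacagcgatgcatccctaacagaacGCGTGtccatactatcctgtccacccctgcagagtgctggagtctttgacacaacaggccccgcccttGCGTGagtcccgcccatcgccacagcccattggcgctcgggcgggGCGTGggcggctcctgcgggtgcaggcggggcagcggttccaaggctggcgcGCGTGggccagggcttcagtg
Tpi1 (chr6:124814109-124814408, minus strand): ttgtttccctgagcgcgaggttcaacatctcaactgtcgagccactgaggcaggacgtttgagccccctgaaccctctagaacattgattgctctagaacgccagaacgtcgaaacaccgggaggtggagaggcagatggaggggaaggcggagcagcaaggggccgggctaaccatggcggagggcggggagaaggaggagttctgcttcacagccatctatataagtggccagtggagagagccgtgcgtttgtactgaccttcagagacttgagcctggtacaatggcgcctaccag

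More members were called between the WT tumors of the lines than between knockout and WT in either line. In WT tumors, HIF targets, the glucose importer Slc2a1 and most enzymes of the glycolytic chain were higher in 6694c2 than in 6419c5. Of 40 members tested, 28 were higher and 3 lower in WT 6694c2 than in WT 6419c5, where 14.1% of all 13422 genes were called higher and 32.2% lower (46.3% in either direction; limma, Benjamini-Hochberg adjusted p under 0.05). The median difference was 0.95 on the log2(TPM + 1) scale over the members and -0.22 over all genes. With median-of-ratios scaling, in which each library is divided by its median ratio to the typical library, 30 members were higher and 2 lower, and the medians were 1.17 over the members and -0.02 over all genes. Of all genes 21.7% were then higher and 21% lower (42.7% in all). In bulk libraries fewer cells of a type and less RNA per cell cannot be told apart.

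**Figure D1:**
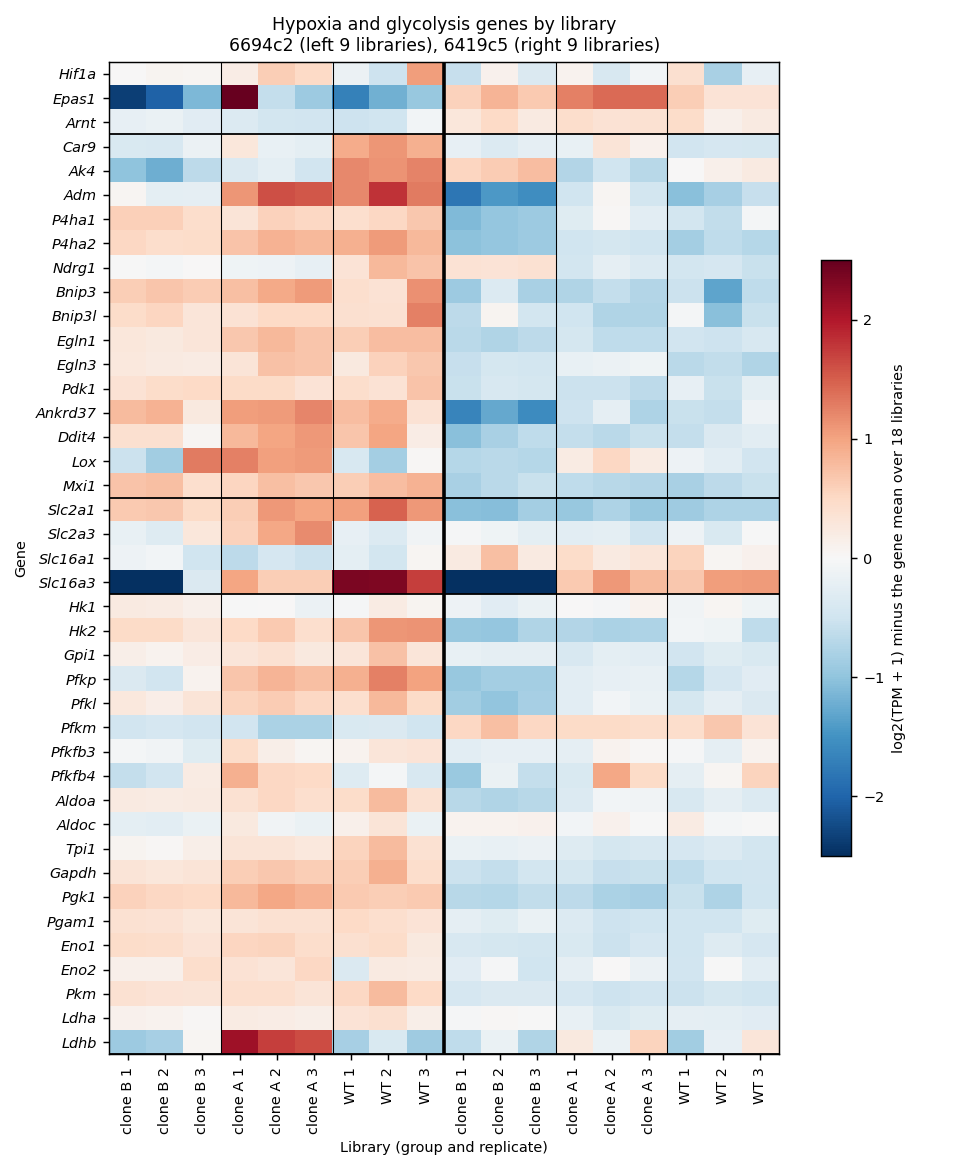
Level of each of the 41 members (rows, by role) in each of the 18 libraries (columns; clone B, clone A and WT of 6694c2, then of 6419c5), as log2(TPM + 1) minus the member's mean, with colors clipped at the ends of the scale. Most rows are above their mean in the 9 libraries of 6694c2 and below it in the 9 of 6419c5, and the Slc16a3 row is low in the clone B libraries of both lines.

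By role, 14 of the 15 oxygen sensing and target genes were higher in WT 6694c2 (median 1.18), and Lox, a collagen cross-linking enzyme, did not pass the test (-0.12, limma adjusted p = 0.838; 0.05 with median-of-ratios scaling). Adm, the vasodilating peptide adrenomedullin, had 34.1, 52.3 and 36.4 TPM in WT 6694c2, against 6.39, 7.63 and 9.27 TPM in WT 6419c5 (2.25, SE 0.20, limma adjusted p = 5.41e-07). Every 6694c2 WT library was above every 6419c5 WT library. P4ha2, a catalytic subunit of collagen prolyl hydroxylase, had 75.0, 85.1 and 71.2 TPM in WT 6694c2 and 21.9, 25.4 and 24.1 TPM in WT 6419c5, with no overlap (1.65, SE 0.08, limma adjusted p = 1.57e-09). Both oxygen sensors were higher too, Egln1 by 1.19 and Egln3 by 1.18, as were the mitophagy receptor genes Bnip3 (1.47) and Bnip3l (1.23), the Myc antagonist Mxi1 (1.43), and Pdk1, a kinase that restrains pyruvate oxidation (0.85).

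Slc2a1, the main glucose importer of proliferating cells, had 358, 492 and 371 TPM in WT 6694c2 and 94.3, 102 and 102 TPM in WT 6419c5 (2.01, SE 0.13, limma adjusted p = 2.27e-08), and the groups did not overlap. Of the lactate carriers, Slc16a3, which exports lactate, was higher in WT 6694c2 (1.21, limma adjusted p = 0.0358), and Slc16a1, which carries lactate both ways, was lower (-0.46, limma adjusted p = 0.0457). The Slc16a3 call was lost with no filter on low values (limma adjusted p = 0.0548) and without WT replicate 1 or 2 of 6694c2 or any 1 WT library of 6419c5 (limma adjusted p = 0.0573 to 0.0995). The Slc16a1 call was lost with median-of-ratios scaling (-0.24) and in several other fits. The other 29 calls between the WT groups were kept in each of the 28 alternative fits that tested the gene. Gapdh was not tested in the fit without the 20 most abundant genes.

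Among the 19 enzymes and regulators, 12 were higher and 1 lower in WT 6694c2 (median 0.83). Gapdh, which makes the first energy-rich phosphate of the payoff phase, averaged 8710.0 ± 1379 TPM in WT 6694c2 and 3811 ± 236 TPM in WT 6419c5 (SD, n = 3 each; 1.18, limma adjusted p = 2.59e-07). Pgk1, the next enzyme of the chain, averaged 1328 ± 24.4 and 559.6 ± 53.5 TPM in the same groups (1.25, limma adjusted p = 1.07e-08). The muscle phosphofructokinase gene Pfkm ran the other way, with 24.0, 24.1 and 21.8 TPM in WT 6694c2 and 43.3, 50.5 and 40.2 TPM in WT 6419c5 (-0.90, SE 0.10, limma adjusted p = 5.93e-06). The platelet form Pfkp (1.53) and the liver form Pfkl (0.91) of the same enzyme were higher in WT 6694c2. Summed over the 19, these genes held 2.44% ± 0.286 of all TPM in WT 6694c2 and 1.24% ± 0.0447 in WT 6419c5 (SD, n = 3 each). The 6 members of this role that did not pass were Hk1, Pfkfb3, Pfkfb4, Aldoc, Eno2 and Ldhb, and with median-of-ratios scaling Hk1 and Pfkfb3 passed as well.

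**Figure D2:**
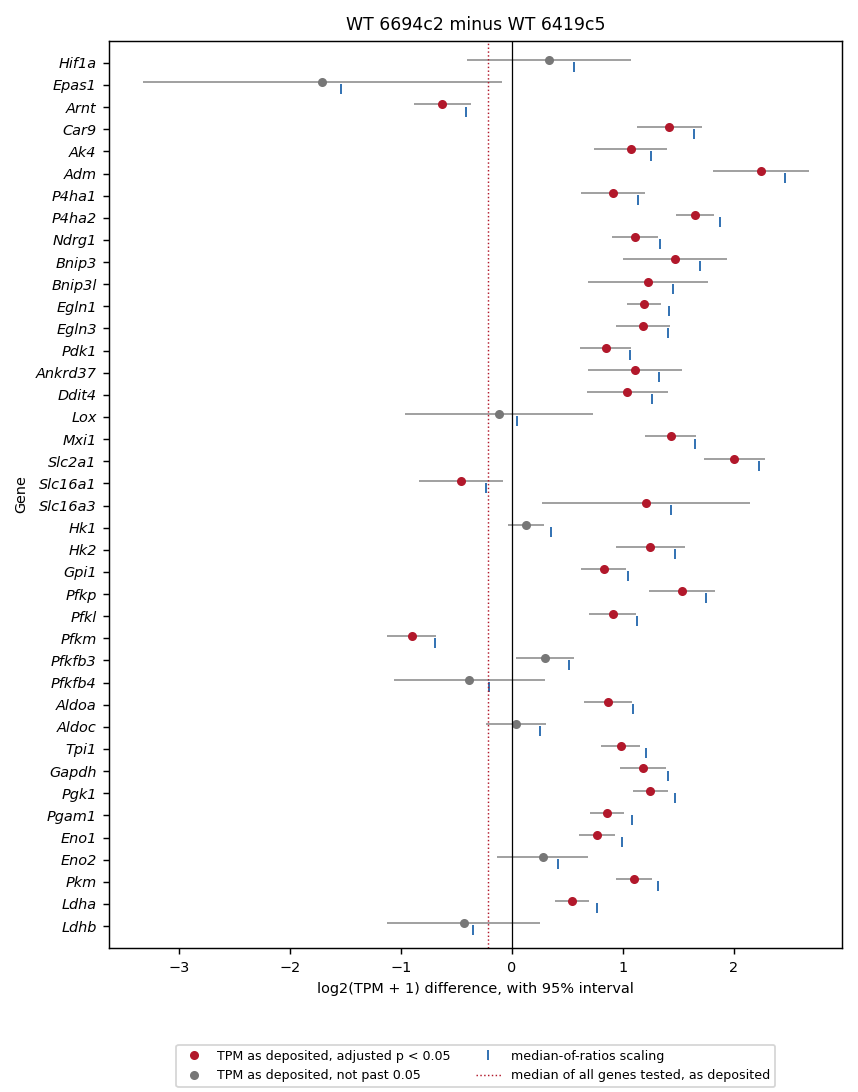
Difference of each tested member between WT 6694c2 and WT 6419c5 (log2(TPM + 1), points with 95% intervals, 3 libraries a group; red where the limma adjusted p is under 0.05), with blue marks for median-of-ratios scaling and a dotted line at the median of all genes. Of the red points 28 lie right of 0 and 3, namely Arnt, Slc16a1 and Pfkm, lie left of it.

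The HIF subunits themselves gave no call in the knockout contrast of either line, and none had an unadjusted limma p under 0.05 there. Hif1a (chr12:73901375-73947530) had 60.5, 62.9 and 61.5 TPM in clone B, 68.0, 92.3 and 84.1 TPM in clone A and 53.8, 41.4 and 125 TPM in WT of 6694c2. The 6419c5 libraries had 39.7, 64.6 and 46.3 TPM in clone B, 63.9, 45.0 and 56.5 TPM in clone A and 78.5, 33.7 and 51.7 TPM in WT. The WT libraries spanned the knockout libraries in both lines, and 6694c2 WT replicate 3 was the highest of all 18. The knockout difference was 0.11 (95% interval -0.53 to 0.75) in 6694c2 and 0.01 (-0.63 to 0.64) in 6419c5, and both signs changed with median-of-ratios scaling. Bnip3, Bnip3l and Kdm3a were likewise highest in 6694c2 WT replicate 3, at 243 TPM, 191 TPM and 67.6 TPM.

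Arnt (chr3:95434388-95497240) had 29.4, 30.3 and 27.9 TPM in clone B, 26.8, 24.6 and 24.3 TPM in clone A and 23.6, 23.8 and 32.6 TPM in WT of 6694c2. In 6419c5 it had 41.5, 48.3 and 40.1 TPM in clone B, 46.5, 44.3 and 44.4 TPM in clone A and 47.0, 37.1 and 40.2 TPM in WT. Every library of 6694c2 was below every library of 6419c5, and between the WT groups the difference was -0.63 (limma adjusted p = 5.76e-04). Epas1 (chr17:86753700-86833410), whose product is abundant in endothelial cells, had 0.597, 1.004 and 2.71 TPM in clone B, 81.4, 4.40 and 3.33 TPM in clone A and 1.53, 2.52 and 3.22 TPM in WT of 6694c2. The value of 81.4 TPM stood in the clone A library whose endothelial marker sum was 171 TPM. In 6419c5 Epas1 had 11.1, 13.5 and 11.7 TPM in clone B, 18.5, 20.7 and 20.6 TPM in clone A and 11.4, 9.33 and 9.29 TPM in WT. Clone A was above WT in every library, and the difference did not pass (0.93, limma adjusted p = 0.627) unless the 3 libraries that stood apart were left out (0.89, limma adjusted p = 0.0255). Between the WT groups Epas1 was lower in every library of 6694c2, and the difference of -1.71 did not pass with all libraries. It passed without 6694c2 clone A replicate 1 (-1.71, limma adjusted p = 1.08e-04). Leaving out the 3 libraries that stood apart gave -1.75 (limma adjusted p = 4.26e-05).

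Between knockout and WT, more members were called in 6694c2 than in 6419c5. In 6694c2, 12 members fell and 1 rose, where 5.79% of all genes fell and 14.7% rose (20.4% called in all), and the median was -0.16 over the members and 0.15 over all genes. Those that fell were 6 target genes, 2 transporters and 4 enzymes, and Ldhb rose. In 6419c5, 2 members fell and 2 rose, where 3.4% of all genes fell and 3.97% rose (7.38% in all), with medians of 0.00 and 0.01. With median-of-ratios scaling 23 members were lower and 1 higher in 6694c2 (all genes 13.4% lower and 7.66% higher, 21% in all; medians -0.36 and -0.03), and 2 lower and 1 higher in 6419c5 (all genes 3.43% lower and 3.26% higher, 6.68% in all). All 13 calls of 6694c2 were among those 24, with the same signs, and 3 of the 4 calls of 6419c5 were kept. No member called in a line changed sign with this scaling, while Hif1a, Arnt, Bnip3, Ankrd37, Pgk1 and Eno1 (not called) did in 6694c2. Without the 3 libraries that stood apart, 10 fell and 1 rose in 6694c2 (16.4% of all genes called), and 2 fell and 1 rose in 6419c5 (6.7% of all genes). Without 6694c2 WT replicate 2 the count in that line was 8 (14.6% of all genes), and the calls of Hk2 (-0.44, limma adjusted p = 0.0584), Slc2a1 (-0.31, 0.0728), P4ha2 (-0.21, 0.0636), Egln1 (-0.19, 0.0960) and Pkm (-0.14, 0.124) were lost. With a fibroblast marker index as a covariate, added after the values were seen, 6 fell and none rose in 6694c2 (limma; 2 rose at an unadjusted p under 0.05), where 7.16% of all genes were called. The 6 were Slc16a3, Ak4, Car9, Ndrg1, Pfkp and Tpi1, which were also the calls kept in all 28 alternative fits. In 6419c5 those of Slc16a3 and Ndrg1 were kept in all 28. In 6694c2 clone B replicates 1 and 2, macrophage sums of 417 and 427 TPM lay within the WT range and fibroblast sums of 120 and 104 TPM below it.

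**Figure D3:**
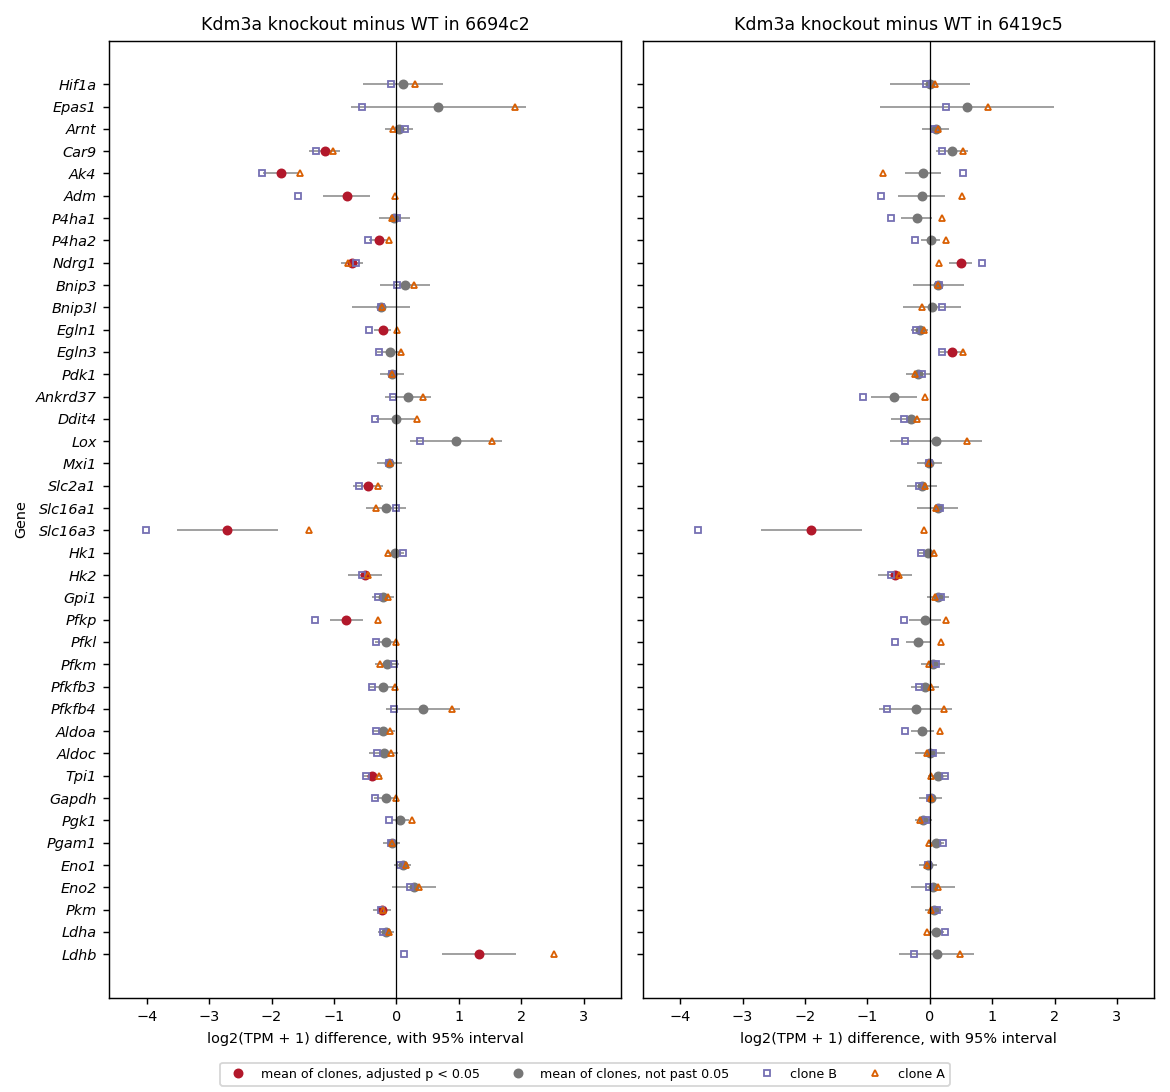
Knockout minus WT of each tested member in 6694c2 (left) and 6419c5 (right), as log2(TPM + 1) differences. Circles are the mean of the clones with 95% intervals (red where the limma adjusted p is under 0.05), squares clone B and triangles clone A; red circles number 13 on the left and 4 on the right.

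Of the target genes, Car9 (chr4:43506966-43513729), a cell-surface carbonic anhydrase that buffers acid, had 83.7, 82.3 and 97.5 TPM in clone B, 132, 95.6 and 92.1 TPM in clone A and 208, 233 and 202 TPM in WT of 6694c2. All 6 knockout libraries were below all 3 WT libraries (-1.15, SE 0.12, limma adjusted p = 7.58e-06). Levels in 6419c5 were 94.4, 85.3 and 93.5 TPM in clone B, 95.8, 137 and 117 TPM in clone A and 77.7, 81.3 and 79.6 TPM in WT. There every knockout library was above every WT library, but the mean of the clones did not pass (0.36, limma adjusted p = 0.0869). Both knockout groups of 6694c2 thus lay near the levels of 6419c5.

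Ak4 (chr4:101419277-101466995), a mitochondrial adenylate kinase, had 0.539, 0.338 and 0.9754 TPM in clone B, 1.41, 1.64 and 1.22 TPM in clone A and 6.15, 5.72 and 6.37 TPM in WT of 6694c2, again without overlap (-1.85, SE 0.13, limma adjusted p = 1.71e-07). In 6419c5 the clones parted: clone B had 3.499, 3.83 and 4.32 TPM, clone A 0.879, 1.20 and 0.909 TPM and WT 2.11, 2.37 and 2.64 TPM. Clone B was higher than WT (0.53, limma adjusted p = 0.0252) and clone A lower (-0.76, limma adjusted p = 0.00811), so that their mean was close to 0 (-0.11). The clone B call was lost with a pseudocount of 0.1 (0.69, limma adjusted p = 0.0992) and without WT replicate 1 or 2 or clone B replicate 2 or 3 (limma adjusted p = 0.0592 to 0.0980). These levels are low, and the log2(TPM + 1) scale understates such changes.

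Ndrg1 (chr15:66929318-66969640), a stress-response gene strongly induced by low oxygen, had 436, 426 and 442 TPM in clone B, 408, 404 and 385 TPM in clone A and 560.1, 774 and 727 TPM in WT of 6694c2 (-0.71, SE 0.08, limma adjusted p = 3.31e-05). The knockout and WT libraries did not overlap. In 6419c5 Ndrg1 rose, with 564, 561 and 573 TPM in clone B, 322, 379.7 and 349 TPM in clone A and 321, 327 and 298 TPM in WT (0.50, SE 0.08, limma adjusted p = 0.00169). Clone B carried that rise (0.84, limma adjusted p = 3.68e-05), and clone A, which overlapped WT, did not pass alone (0.15, limma adjusted p = 0.520).

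Adm had 14.7, 11.8 and 11.99 TPM in clone B, 31.6, 45.6 and 43.8 TPM in clone A and 34.1, 52.3 and 36.4 TPM in WT of 6694c2 (-0.80, SE 0.18, limma adjusted p = 0.00539). Clone B was below WT in every library, and clone A overlapped WT. In 6419c5 Adm had 3.34, 4.67 and 4.24 TPM in clone B, 9.85, 14.9 and 10.2 TPM in clone A and 6.39, 7.63 and 9.27 TPM in WT, so that clone B was below WT here as well (-0.78, limma adjusted p = 0.0149) while clone A was above it in every library without passing (0.52, limma adjusted p = 0.201). That clone B call was lost with the macrophage index as a covariate (-0.52, limma adjusted p = 0.183), with quantile normalization, without the 3 libraries that stood apart, and without WT replicate 3 or clone B replicate 1 (limma adjusted p = 0.0540 to 0.0690).

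P4ha2 fell in 6694c2 (-0.29, SE 0.07, limma adjusted p = 0.00996), with 58.0, 54.9 and 55.3 TPM in clone B, 66.7, 74.3 and 71.1 TPM in clone A and 75.0, 85.1 and 71.2 TPM in WT, where clone A overlapped WT. In 6419c5 its libraries had 19.2, 20.1 and 21.0 TPM in clone B, 28.2, 29.5 and 28.2 TPM in clone A and 21.9, 25.4 and 24.1 TPM in WT, with clone B below and clone A above WT, and neither clone passed. Its partner gene P4ha1 did not pass in 6694c2 (-0.03) and was lower in clone B of 6419c5 (-0.62, limma adjusted p = 0.00522).

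Egln1, the main oxygen sensor of the family, had 92.7, 89.99 and 94.1 TPM in clone B, 121, 133 and 123 TPM in clone A and 117, 131 and 129 TPM in WT of 6694c2 (-0.22, SE 0.06, limma adjusted p = 0.0242). Only clone B lay below WT. In 6419c5 it had 47.1, 44.4 and 47.7 TPM in clone B, 55.5, 48.5 and 48.1 TPM in clone A and 54.0, 52.5 and 56.7 TPM in WT and did not pass over both clones (-0.16, limma adjusted p = 0.149), though clone B alone did (-0.22, limma adjusted p = 0.0427; -0.18, limma adjusted p = 0.229 with median-of-ratios scaling). Egln3, the more inducible sensor, had 107, 104 and 102 TPM in clone B, 110.5, 148 and 144 TPM in clone A and 105, 134 and 143 TPM in WT of 6694c2 and both clones overlapped WT (-0.10, limma adjusted p = 0.519). In 6419c5 it had 59.0, 65.1 and 64.5 TPM in clone B, 78.0, 80.1 and 81.9 TPM in clone A and 55.0, 57.8 and 52.5 TPM in WT, with all knockout above all WT libraries (0.36, SE 0.10, limma adjusted p = 0.0385). This call was lost with median-of-ratios scaling (0.34, limma adjusted p = 0.0892) and without any 1 of the WT libraries of that line (limma adjusted p = 0.0741 to 0.141).

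The other 8 target genes, namely P4ha1, Bnip3, Bnip3l, Pdk1, Ankrd37, Ddit4, Lox and Mxi1, did not pass in either line over both clones. In 6694c2 their differences lay between -0.24 (Bnip3l) and 0.95 (Lox), with 0.14 for Bnip3, -0.07 for Pdk1 and -0.01 for Ddit4, which restrains the growth kinase mTOR. With median-of-ratios scaling Pdk1 (-0.27, limma adjusted p = 0.0145) and Mxi1 (-0.31, limma adjusted p = 0.0452) were lower in 6694c2. In 6419c5 they lay between -0.57 (Ankrd37) and 0.14 (Bnip3). Within single clones, Ankrd37, a small ankyrin repeat gene, fell in clone B of 6419c5 (-1.07, limma adjusted p = 0.00173), with 8.66, 11.5 and 9.10 TPM in clone B, 20.2, 24.7 and 16.8 TPM in clone A and 19.6, 18.9 and 26.7 TPM in WT. Lox rose in clone A of 6694c2 (1.53, limma adjusted p = 0.0136), with 2.46, 1.73 and 11.4 TPM in clone B, 11.1, 9.26 and 9.54 TPM in clone A and 2.78, 1.77 and 4.14 TPM in WT. The clone B library with 11.4 TPM of Lox was the one whose fibroblast sum was 826 TPM, against 120 and 104 TPM in the other clone B libraries, and the clone A libraries had sums of 652 to 974 TPM. With the fibroblast index as a covariate the clone A difference of Lox was -0.29 (limma adjusted p = 0.755). Summed over the 15 target genes, clone B, clone A and WT had 1513 ± 40.9, 1799 ± 75.1 and 2109 ± 205 TPM in 6694c2 and 1108 ± 43.7, 989.6 ± 55.6 and 907 ± 27.4 TPM in 6419c5 (SD, n = 3 each). Ndrg1 was the largest part of each sum, with means of 435, 399 and 687 TPM in 6694c2 and 566, 350 and 315 TPM in 6419c5. The sums therefore do not stand for the target genes at large.

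Of the transporters, Slc16a3 (chr11:120948480-120960868), the lactate exporter of glycolytic cells whose promoter holds the core pair shown above, had the largest fall of the set in both lines. In 6694c2 it had 4.49, 4.602 and 25.5 TPM in clone B, 67.1, 51.6 and 51.2 TPM in clone A and 174, 172 and 113 TPM in WT. The 3 groups did not overlap, and the clone B library at 25.5 TPM was the one with a macrophage sum of 3398 TPM. In 6419c5 it had 4.33, 2.83 and 5.08 TPM in clone B, 53.1, 71.3 and 58.3 TPM in clone A and 53.6, 69.8 and 70.9 TPM in WT. There clone B was far below WT, and clone A overlapped WT. The fall over both clones passed in 6694c2 (-2.71, SE 0.38, limma adjusted p = 1.66e-04) and in 6419c5 (-1.90, SE 0.38, limma adjusted p = 0.00560). By clone it was -4.01 in clone B and -1.40 in clone A of 6694c2 (limma adjusted p = 1.67e-05 and 0.0349) and -3.71 in clone B of 6419c5 (limma adjusted p = 4.69e-05), while clone A of 6419c5 did not pass (-0.09, limma adjusted p = 0.952). The clone A call of 6694c2 was lost without WT replicate 1 or 2 or any 1 clone A library (limma adjusted p = 0.0559 to 0.0965).

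Slc2a1 (chr4:119108711-119137983) had 275, 279 and 243 TPM in clone B, 270.1, 373 and 346 TPM in clone A and 358, 492 and 371 TPM in WT of 6694c2 and fell (-0.45, SE 0.11, limma adjusted p = 0.0114). Clone B was below WT in every library and clone A overlapped it. In 6419c5 its libraries had 84.5, 83.0 and 96.5 TPM in clone B, 90.9, 102 and 90.5 TPM in clone A and 94.3, 102 and 102 TPM in WT (-0.13, limma adjusted p = 0.631). Slc16a1 did not pass in 6694c2 (-0.16, limma adjusted p = 0.475) unless scaled by median of ratios (-0.36, limma adjusted p = 0.0360), nor in 6419c5 (0.13, limma adjusted p = 0.757). The untested Slc2a3 had 0.383, 0.269 and 0.921 TPM in clone B, 1.35, 2.10 and 2.59 TPM in clone A and 0.376, 0.251 and 0.484 TPM in WT of 6694c2, and its highest levels were in the clone A libraries, which also carried more macrophage and fibroblast transcripts than WT; the part of those cells was not tested.

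Of the enzymes, Hk2 (chr6:82725025-82774454), the inducible hexokinase that commits glucose to the pathway, was with Slc16a3 the member that fell in both lines. It had 101, 102 and 89.7 TPM in clone B, 103, 114 and 97.3 TPM in clone A and 118, 158 and 159.9 TPM in WT of 6694c2 (-0.51, SE 0.13, limma adjusted p = 0.0113). In 6419c5 it had 36.9, 36.8 and 42.7 TPM in clone B, 43.5, 41.5 and 41.8 TPM in clone A and 69.3, 67.3 and 46.1 TPM in WT (-0.56, SE 0.13, limma adjusted p = 0.0125). In each line all 6 knockout libraries were below all 3 WT libraries, by a narrow margin. The call was lost in 6694c2 without WT replicate 2 (-0.44, limma adjusted p = 0.0584) and with the macrophage (-0.38, 0.0505) or fibroblast index (-0.43, 0.156) as a covariate, and in 6419c5 without WT replicate 1 (-0.45, adjusted p = 0.0851) or WT replicate 2 (-0.47, adjusted p = 0.0805).

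Pfkp (chr13:6579768-6648777), a phosphofructokinase of the main control step, had 30.7, 28.3 and 42.3 TPM in clone B, 64.8, 71.9 and 67.8 TPM in clone A and 74.7, 96.6 and 81.1 TPM in WT of 6694c2 (-0.80, SE 0.12, limma adjusted p = 2.98e-04). All knockout libraries were below WT, clone B by far (-1.31, limma adjusted p = 1.16e-05) and clone A without passing alone (-0.29, limma adjusted p = 0.150). In 6419c5 the libraries had 20.03, 21.5 and 21.4 TPM in clone B, 32.9, 34.1 and 35.0 TPM in clone A and 23.8, 29.4 and 32.2 TPM in WT. There clone B was below and clone A above every WT library, and neither passed alone with all libraries. The mean of these opposed clones was close to 0 and did not pass (-0.08, limma adjusted p = 0.831).

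Tpi1 (chr6:124810586-124814296), which interconverts the triose phosphates, had 1233, 1187 and 1289 TPM in clone B, 1455, 1467 and 1399 TPM in clone A and 1729.5, 2011 and 1516 TPM in WT of 6694c2, with no overlap between knockout and WT (-0.38, SE 0.07, limma adjusted p = 0.00184). The 6419c5 levels of Tpi1 were 1042, 1027 and 1061 TPM in clone B, 932, 866 and 883 TPM in clone A and 875, 916 and 853 TPM in WT (0.13, limma adjusted p = 0.361), where clone B was above WT in every library. Pkm, the pyruvate kinase of the last step, had 2253, 2174 and 2161 TPM in clone B, 2293, 2319 and 2168 TPM in clone A and 2471, 2994 and 2428 TPM in WT of 6694c2, also without overlap (-0.23, SE 0.07, limma adjusted p = 0.0213). In 6419c5 Pkm had 1287, 1348 and 1340.4 TPM in clone B, 1288, 1210.4 and 1236 TPM in clone A and 1188, 1264 and 1218 TPM in WT (0.07, limma adjusted p = 0.663).

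Of the lactate dehydrogenase genes, Ldha, the form that favours lactate, had 1782, 1762 and 1708 TPM in clone B, 1911, 1886 and 1834 TPM in clone A and 2102, 2192 and 1834 TPM in WT of 6694c2, where clone B lay below WT and clone A overlapped it (-0.17, limma adjusted p = 0.0654; -0.37, limma adjusted p = 0.00940 with median-of-ratios scaling). Ldha in 6419c5 had 1634, 1693 and 1650.1 TPM in clone B, 1457, 1283 and 1346 TPM in clone A and 1424, 1402 and 1371 TPM in WT, and it rose in clone B alone (0.25, limma adjusted p = 0.0257), a call that was lost with median-of-ratios scaling (0.29, limma adjusted p = 0.0730). Ldhb, the heart form, had 0.319, 0.404 and 1.57 TPM in clone B, 9.83, 7.28 and 6.67 TPM in clone A and 0.400, 0.920 and 0.353 TPM in WT of 6694c2. Its rise over both clones (1.33, SE 0.28, limma adjusted p = 0.00416) lay in clone A (2.52, limma adjusted p = 8.25e-05), where every library was above every WT library, and not in clone B (0.13, limma adjusted p = 0.822). In 6419c5 Ldhb had 0.609, 1.21 and 0.478 TPM in clone B, 1.95, 1.21 and 2.68 TPM in clone A and 0.354, 1.15 and 2.08 TPM in WT (0.11, limma adjusted p = 0.913). With the fibroblast index as a covariate, a setting added after the values were seen, the rise in 6694c2 was 0.92 (limma adjusted p = 0.134).

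Gapdh had 6908, 6721 and 6905 TPM in clone B, 8486, 8788 and 8519 TPM in clone A and 8461, 10197 and 7472 TPM in WT of 6694c2 and did not pass over both clones (-0.17, limma adjusted p = 0.168), though clone B was below WT in every library and passed alone (-0.34, limma adjusted p = 0.0338). With median-of-ratios scaling it passed (-0.37, limma adjusted p = 0.0495). Gapdh in 6419c5 had 3828, 3661 and 4009.9 TPM in clone B, 4099.7, 3689 and 3767 TPM in clone A and 3543, 3901 and 3989 TPM in WT, and its difference of 0.01 changed sign with that scaling. The remaining 12 enzymes and regulators did not pass in either line over both clones, with differences in 6694c2 from -0.22 (Gpi1) to 0.43 (Pfkfb4). With median-of-ratios scaling Gpi1, Pfkm, Pfkfb3, Aldoa, Aldoc and Pgam1 of these were lower in 6694c2, by -0.28 (Pgam1) to -0.42 (Gpi1). Together the 19 held 2.04% ± 0.0285, 2.36% ± 0.0595 and 2.44% ± 0.286 of all TPM in clone B, clone A and WT of 6694c2, and 1.26% ± 0.0241, 1.25% ± 0.0357 and 1.24% ± 0.0447 in the same groups of 6419c5 (SD, n = 3 each). Processed copies of several of these genes exist in the genome and the table lists Eno1b (0.288 to 13.1 TPM) beside Eno1. How the authors' quantification split shared reads is not stated, so levels of Gapdh, Ldha, Pgk1, Eno1 and other enzymes with near-identical copies are uncertain.

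**Figure D4:**
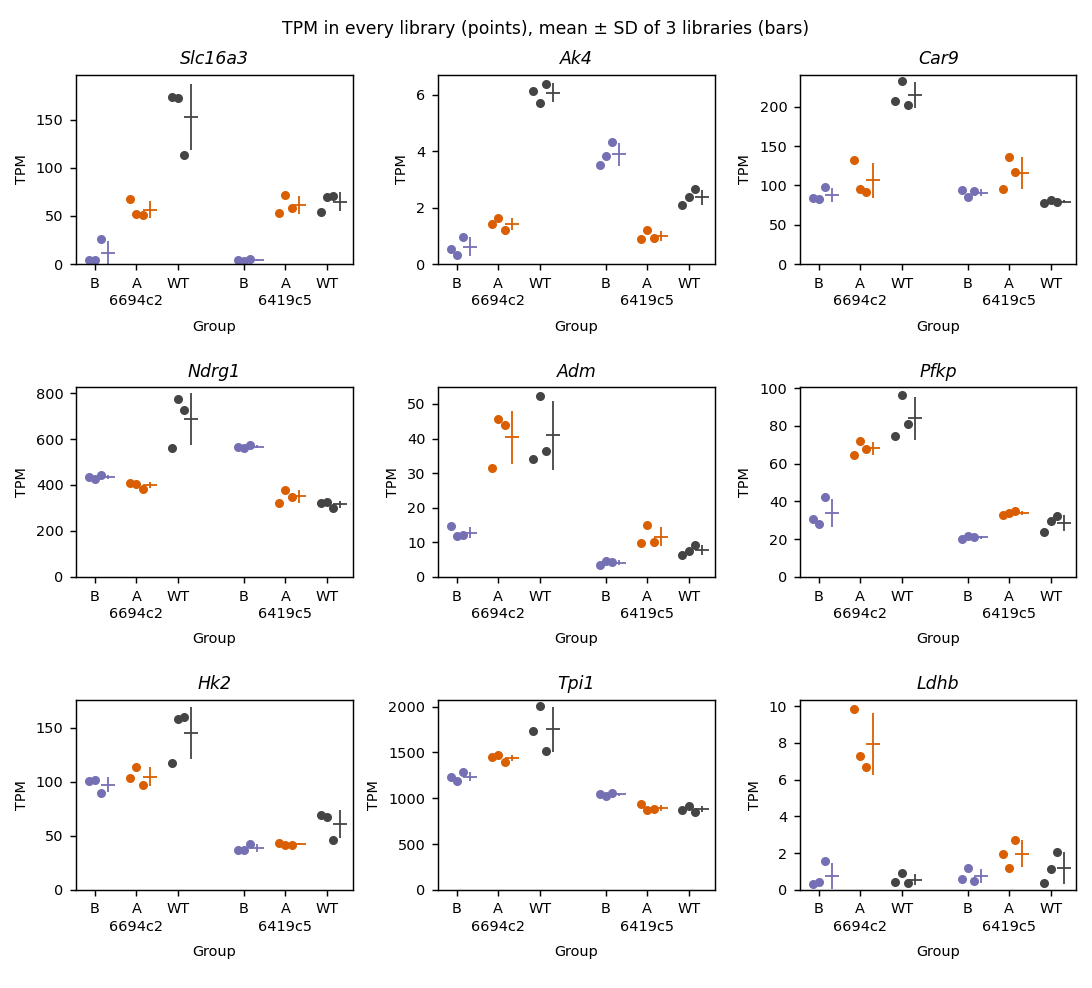
TPM of 9 members in each library (points) with mean ± SD of 3 libraries (bars) for clone B, clone A and WT of 6694c2 and of 6419c5; each panel has its own axis from 0. Car9, Ak4, Ndrg1, Pfkp, Hk2 and Tpi1 lie below WT in all 6 knockout libraries of 6694c2, Slc16a3 is near the bottom of its axis in clone B of both lines, and Ldhb is high in clone A of 6694c2.

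The difference of the knockout effect between the lines (6694c2 minus 6419c5) was tested directly. It passed for 5 members, all negative (limma; 2 positive and 11 negative at an unadjusted p under 0.05), where 2.93% of all genes passed as negative and 5.78% as positive (8.71% in all). The 5 calls were kept in all 28 alternative fits. They were Ak4 (-1.74, SE 0.19, limma adjusted p = 6.68e-05), Car9 (-1.51, SE 0.17, limma adjusted p = 8.12e-05), Ndrg1 (-1.20, SE 0.12, limma adjusted p = 2.88e-05), Pfkp (-0.72, SE 0.17, limma adjusted p = 0.0168) and Tpi1 (-0.52, SE 0.10, limma adjusted p = 0.00652). With median-of-ratios scaling these 5 and also Egln3, Pkm and Ldha passed, all negative, and of all genes 6.06% passed as negative and 3.79% as positive (9.86% in all). For Slc16a3 the difference was -0.81 (95% interval -1.96 to 0.34, limma adjusted p = 0.388), and it passed without 6694c2 clone B replicate 3 (-1.18, limma adjusted p = 0.0115), without the 3 libraries that stood apart (-1.32, 0.0168) and with the macrophage (-1.83, 0.0162) or fibroblast index (-1.57, 0.0192) as a covariate. For Hk2 it was 0.05 (-0.33 to 0.43).

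By clone, the calls of members were spread unevenly. In 6694c2 clone B 17 members fell and none rose, where 3.94% of all genes fell and 10.6% rose (14.5% in all). Besides the 12 that fell over both clones, these were Gpi1, Pfkl, Pfkfb3, Aldoa and Gapdh, so the calls covered 9 of the 19 glycolytic genes. No member was higher in clone B at an unadjusted limma p under 0.05 either, and 20 were lower. In 6694c2 clone A 6 fell and 3 rose, where 7.01% of all genes fell and 14.7% rose (21.7% in all). The 6 were Car9, Ak4, Ndrg1, Slc16a3, Hk2 and Tpi1, and the 3 were Lox, Ldhb and Pgk1. With median-of-ratios scaling clone B had 22 lower and none higher (all genes 8.28% and 4.61%, 12.9% in all), and clone A 10 lower and 2 higher (all genes 13.7% and 9.77%, 23.5% in all). Calls kept in all 28 alternative fits numbered 10 in clone B (Adm, Ak4, Car9, Egln1, Ndrg1, P4ha2, Pfkp, Slc16a3, Slc2a1 and Tpi1) and 3 in clone A (Ak4, Car9 and Ndrg1). Both clones were set against the same WT libraries.

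In 6419c5 clone B 8 members fell and 3 rose, where 11% of all genes fell and 7.97% rose (18.9% in all). Those that fell were Adm, P4ha1, Egln1, Ankrd37, Slc16a3, Hk2, Pfkl and Aldoa, and those that rose were Ak4, Ndrg1 and Ldha. In 6419c5 clone A Ak4 fell, and Car9 and Egln3 rose, where 1.65% of all genes fell and 3.14% rose (4.79% in all). With median-of-ratios scaling clone B had 6 lower and 2 higher (all genes 9.14% and 8.96%, 18.1% in all), and clone A had 2 lower (Ak4 and Pdk1) and none higher (limma; 2 higher at an unadjusted p under 0.05; all genes 2.04% and 2.27%, 4.31% in all). Calls kept in all 28 alternative fits were those of Ankrd37, Hk2, Ndrg1, Pfkl and Slc16a3 in clone B and of Ak4 in clone A.

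The clones of a line were also compared with each other. In 6694c2 10 members were lower and none higher in clone B than in clone A (limma; 2 higher at an unadjusted p under 0.05), where 4.26% of all genes were lower and 5.27% higher (9.53% in all). They were Ak4, Adm, P4ha2, Egln1, Ddit4, Slc16a3, Pfkp, Gapdh, Pgk1 and Ldhb. In 6419c5 11 were lower and 4 higher in clone B than in clone A, where 18.9% of all genes were lower and 7.38% higher (26.3% in all). The 4 were Ak4, Ndrg1, Pgam1 and Ldha, and the 11 were Adm, P4ha1, P4ha2, Egln3, Ankrd37, Slc16a3, Hk1, Pfkp, Pfkl, Pfkfb4 and Aldoa. For Slc16a3 clone B stood -2.61 from clone A in 6694c2 (limma adjusted p = 0.00301) and -3.62 in 6419c5 (adjusted p = 5.58e-05). For Adm the values were -1.57 and -1.30, and for Pfkp -1.01 and -0.67. With median-of-ratios scaling 8 were lower and none higher in 6694c2 (all genes 4.37% and 3.82%, 8.2% in all), and 8 lower and 4 higher in 6419c5 (all genes 13.5% and 12.4%, 26% in all). Clone B carried less macrophage and fibroblast marker transcript than clone A in both lines, except for 6694c2 clone B replicate 3, which lay within the clone A range. When the fit held the macrophage index too, the counts were 6 lower and none higher in 6694c2 (limma; 1 higher at an unadjusted p under 0.05), and 3 lower and 2 higher in 6419c5, where 2.62% and 9.55% of all genes were called in 6694c2 and 6419c5. Pfkp (-0.20, limma adjusted p = 0.408) and Adm (-0.95, limma adjusted p = 0.0630) of 6419c5 were then not called. With the fibroblast index 1 member (Adm) was called in 6694c2 (0.127% of all genes) and 9 in 6419c5 (12.4% of all genes). Slc16a3 in 6694c2 (-1.05, limma adjusted p = 0.406) and Pfkp in 6694c2 (-0.72, limma adjusted p = 0.173) and in 6419c5 (-0.47, limma adjusted p = 0.0730) were not among them. The calls kept in all 28 alternative fits were Adm in 6694c2, and Ak4, Ndrg1, P4ha1, Pfkl and Slc16a3 in 6419c5.

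Ratios of related genes within a library do not depend on how the library was scaled. Slc16a1 over Slc16a3 was 15.01, 15.4 and 2.05 in clone B, 0.696, 1.06 and 0.992 in clone A and 0.36, 0.312 and 0.672 in WT of 6694c2. In 6419c5 it was 20.03, 44.3 and 17.0 in clone B, 1.93, 1.22 and 1.57 in clone A and 2.05, 1.1 and 1.12 in WT. Clone B thus had the higher balance towards Slc16a1 in both lines. Hk1 over Hk2 averaged 1.37 ± 0.0562, 1.08 ± 0.0413 and 0.866 ± 0.102 in clone B, clone A and WT of 6694c2, and 2.65 ± 0.228, 2.82 ± 0.135 and 1.92 ± 0.39 in 6419c5 (SD, n = 3 each). In each line every knockout library had a higher ratio than every WT library, and Hk1 itself passed in neither line (-0.02 in 6694c2 and -0.04 in 6419c5). Pfkp over Pfkl averaged 0.239 ± 0.0409, 0.388 ± 0.0149 and 0.477 ± 0.0161 in clone B, clone A and WT of 6694c2 with no overlap, and 0.334 ± 0.0284, 0.324 ± 0.0189 and 0.306 ± 0.0409 in 6419c5 with overlap. Bnip3 over Bnip3l averaged 1.6 ± 0.114, 1.91 ± 0.113 and 1.34 ± 0.0595 in 6694c2, and the ratio was 1.27 in WT replicate 3, against 1.39 and 1.36 in the other WT libraries.

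**Figure D5:**
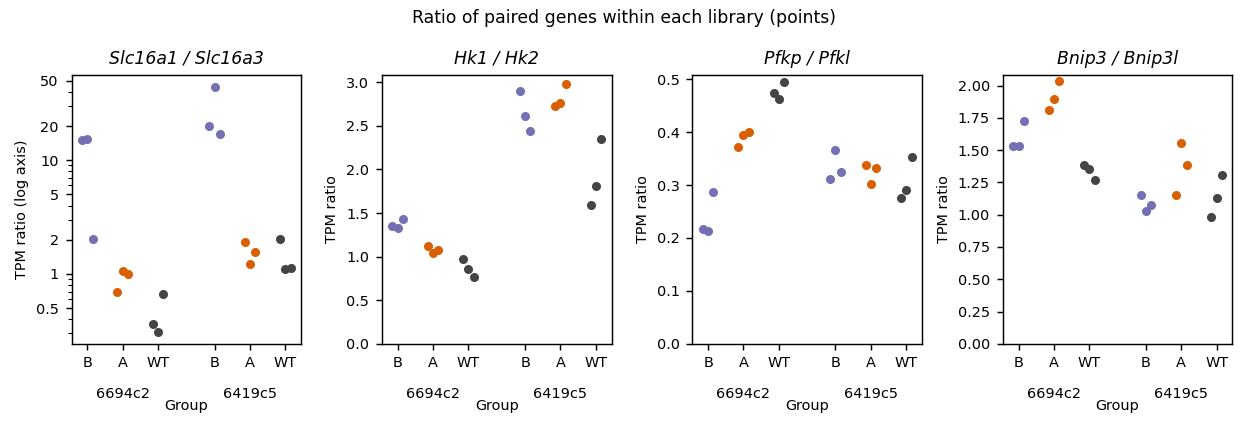
Ratio of TPM of paired genes within each library (points) for clone B, clone A and WT of 6694c2 and of 6419c5; the first panel has a log axis and the others start at 0. Slc16a1 over Slc16a3 is 15.01 to 44.3 in 5 of the 6 clone B libraries and at most 2.05 in the other 13, and Hk1 over Hk2 is higher in the knockout than in the WT libraries of each line.

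Further genes of both pathways were taken from lists that were chosen, like the members, with earlier results of these data known. Of 28 further HIF pathway genes 25 were tested. In 6694c2 5 fell and 3 rose (median -0.01), and in 6419c5 3 fell and 3 rose (median 0.02), against the shares of all genes given above. The placental growth factor gene Pgf fell most in 6694c2 (-0.86, limma adjusted p = 0.00882), followed by the secreted glycoprotein gene Stc2 (-0.77, limma adjusted p = 0.0143). Bhlhe40, a circadian and hypoxia-responsive repressor, fell in 6694c2 (-0.55, limma adjusted p = 6.03e-04) and in 6419c5 (-0.41, limma adjusted p = 0.0102), while its paralog Bhlhe41 rose in 6694c2 (0.43, limma adjusted p = 0.0354; 0.23 and not called with median-of-ratios scaling). Vldlr, a lipoprotein receptor, fell in 6419c5 (-1.29, limma adjusted p = 4.38e-04), the paralog of Arnt named Arnt2 rose there (0.43, limma adjusted p = 0.0171), and Loxl2, a relative of Lox, also rose there (0.52, limma adjusted p = 0.00368) and fell in 6694c2 (-0.38, limma adjusted p = 0.0137). With median-of-ratios scaling 7 of these genes were lower and none higher in 6694c2 (limma, 1 higher at an unadjusted p under 0.05). Of all genes 13.4% were then lower there and 7.66% higher.

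Of 32 further genes of glycolysis and pyruvate use 29 were tested. In 6694c2 4 rose and 1 fell (median 0.20), and in 6419c5 1 rose and none fell (limma; 2 fell at an unadjusted p under 0.05; median -0.06), where 14.7% of all genes rose and 5.79% fell in 6694c2 (median 0.15), and 3.97% rose and 3.4% fell in 6419c5 (median 0.01). Slc2a6, a glucose transporter known from macrophages, rose in 6694c2 (1.73, limma adjusted p = 0.00657). The rise passed with the macrophage index as a covariate (1.01, limma adjusted p = 0.0146) and not with the fibroblast index (1.01, limma adjusted p = 0.209). Pdk3, another kinase that restrains pyruvate oxidation, fell (-1.26, limma adjusted p = 0.00785). Mpc2, a subunit of the mitochondrial pyruvate carrier (0.48), and Pklr, the liver and red cell pyruvate kinase (0.51), rose in 6694c2. Neither was called with median-of-ratios scaling, which gave 2 higher and 6 lower (all genes 7.66% higher and 13.4% lower). In 6419c5 the aspartate aminotransferase gene Got1 rose (0.36, limma adjusted p = 0.00641), and it was not called with that scaling. Between the WT groups 11 of the further HIF genes were higher and 5 lower in 6694c2, while 5 of the further glycolysis genes were higher and 14 lower, beside 14.1% of all genes higher and 32.2% lower. With median-of-ratios scaling 15 of the HIF genes were higher and 2 lower, and 5 of the glycolysis genes higher and 8 lower. Of all genes 21.7% were then higher between the WT groups and 21% lower.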

How the data were processed

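Per the labels and the submitters' processing notes, RNA of sorted tumor cells was quantified by the authors with Salmon on build mm10, and the deposited values are TPM. The Salmon version and annotation are not given in the sources used here, and the word batch in the table's name has no counterpart in the labels, so any adjustment is unknown. The table letters the clones A and B, taken as KO1 and KO2 of the titles. The log2(TPM + 1) values of the 13422 genes averaging 1 TPM or more were fitted as 6 group means over 18 libraries (limma 3.58.1 with trend, R version 4.3.3, 12 residual degrees of freedom), with Benjamini-Hochberg adjustment over all genes. The knockout contrast is the mean of both clones minus WT. The fit was tested on simulated data. Positions are from GENCODE M21 (GRCm38). Members and lists were chosen with earlier results of these data known. Values in every library were to be given for HIF subunits, called members with the largest change, Slc2a1, Slc16a3, Ldha, Gapdh and Kdm3a, and up to 4 further genes per list and contrast were to be named. Other genes with values were chosen after these were seen. Alternatives were 3 other scalings, a pseudocount of 0.1, no filter, a replicate block, marker indices as covariates, libraries left out and limma without trend.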

Additional observations from a re-analysis of the deposited data

Results flagged for a closer look

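For 5 members the knockout effect differed between the lines in the test of the difference itself (6694c2 minus 6419c5, limma). The values were -1.51 for Car9, -1.74 for Ak4, -1.20 for Ndrg1, -0.72 for Pfkp and -0.52 for Tpi1 on the log2(TPM + 1) scale. Each of these genes was below WT in all 6 knockout libraries of 6694c2. In 6419c5 Car9 was above WT in all 6 knockout libraries. The clones of Ak4 lay on opposite sides of WT there, and so did those of Pfkp.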

How the results depend on the processing

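Of the members called, Lox in 6694c2 clone A changed sign with the fibroblast index (-0.29), Pfkfb4 between the 6419c5 clones with the macrophage index (0.15) and Pgk1 in 6694c2 clone A with quantile normalization (-0.05), and none of these was called there. Median-of-ratios scaling moved the called members from 13 to 24 in the 6694c2 knockout contrast and from 5 to 8 in the difference between lines, as did removing the 20 most abundant genes (8) and the macrophage index (8) for the difference. With those 20 genes removed, 622 of 13402 genes were called higher and 519 lower in the difference. Removing them left 1 call of 3 in 6419c5 clone A, where 324 of 13402 genes were higher and 282 lower. Leaving out the 3 libraries that stood apart gave 5 there. Without a filter on low values 6694c2 clone B had 11 calls in place of 17. The fibroblast index, a covariate added after the data were seen, gave 6 in place of 13 in the 6694c2 contrast, 4 in place of 9 in its clone A, 11 in place of 17 in its clone B, 1 in place of 10 between its clones and 9 in place of 15 between the clones of 6419c5. Of all genes the fibroblast index gave 7.16% called in place of 20.4% in the 6694c2 contrast. Between the clones it gave 0.127% in place of 9.53% in 6694c2 and 12.4% in place of 26.3% in 6419c5. Shares of all genes are not given for single clones with that index or for the fit with no filter. Nor are they given for the difference with the macrophage index or for 6419c5 clone A without the 3 libraries. Those counts therefore do not tell a change of the members from one of all genes. With the macrophage index the clones differed in 6 members in 6694c2 and in 5 in 6419c5. The cause was not tested.

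Leaving out single libraries gave 8 to 18 calls in the 6694c2 contrast (8 without WT replicate 2, which ended the calls of Hk2, Slc2a1, P4ha2, Pkm and Egln1), 2 to 5 in the 6419c5 contrast (2 without WT replicate 1 or 2), and 5 to 9 in the difference (8 and 9 without 6694c2 WT replicates 1 and 3). It gave 10 to 19 in clone B (10 without WT replicate 2 or clone B replicate 3, 11 without clone B replicate 1 or 2) and 5 to 10 in clone A (5 without WT replicate 2) of 6694c2, 7 to 15 in clone B (7 without WT replicate 2) and 1 to 3 in clone A (1 without clone A replicate 3) of 6419c5. Between the clones it gave 5 to 13 in 6694c2 (6 and 5 without clone B replicates 1 and 2) and 11 to 16 in 6419c5, and between the WT groups 29 to 32. A left-out library leaves 2 in its group. For single left-out libraries the share of all genes called is given above only for the 6694c2 contrast without WT replicate 2.

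The replicate numbers of the labels gave no sign of pairing the libraries. Across genes, deviations from group means correlated at -0.39 to 0.48 in 45 pairs of the same number (median -0.04), and 15 were over 0.1. The 90 pairs of different numbers correlated at -0.63 to 0.66 (median 0.02), and 40 were over 0.1. With the replicate block 13 members were called in the 6694c2 contrast and 4 in the 6419c5 contrast, and of 200 results on named genes 5 calls were lost and 2 gained. The share of all genes called is not given for that fit. TPM hold no read numbers, so what depth limits cannot be stated.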
